A study of Mus musculus with 4 samples.

Results

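The 32 genes described here are markers of ovarian granulosa cells and genes that the preovulatory hormone surge switches on in granulosa and cumulus cells. They were taken by symbol from the count table, which lists 54021 gene symbols, and all 32 were found there. They comprise 7 transcription factors of granulosa cells, 3 steroid hormone receptors, 2 receptors for FSH and AMH, 4 genes of the inhibin, activin and follistatin system, 6 other granulosa genes, 4 genes of cumulus expansion, 3 EGF-like ligands and 3 other genes induced by LH.

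The tissue was the reconstituted ovary (rOvary), a graft made from female fetal primordial germ cells and the somatic cells of the same gonads, taken from C57BL/6 donors carrying actin-GFP. The grafts grew beneath the kidney capsule of young, bilaterally ovariectomized G2 Terc-/- females, that is, second-generation mice without the telomerase RNA gene, in both groups. INK128, a kinase inhibitor of both mTOR complexes, was given to 1 group in the drinking water at 0.75 uM per g body weight according to the labels, and Control recipients received none. The study's methods state the dose in other units, as a concentration in the water and as an approximate daily mass per body weight, and the units were not converted here. The rOvaries were taken 1 month after transplantation, and polyA RNA of whole grafts was sequenced, with 2 INK128 libraries (replicates 1 and 2) and 2 Control libraries (replicates 1 and 3). The donor cells were not reported to lack Terc, so the deletion lay in the recipient, and tissue of the recipient's kidney could be taken with a graft. The labels do not say whether the libraries came from separate animals, so p-values measure only the spread between these samples.

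Granulosa cells surround the oocyte and are the supporting cells of the ovary, kept in that identity by FOXL2. They respond to FSH with inhibin and with enzymes of estrogen synthesis. At ovulation, LH makes the mural granulosa cells release EGF-like ligands, which lead the cumulus cells to make PTGS2, HAS2, TNFAIP6 and PTX3 and to spread a hyaluronan matrix around the oocyte.

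The libraries held 19130209 to 23029089 counts, so that the floor of 3 counts lay between 0.13 and 0.157 CPM (counts scaled to library size with TMM factors). Across 17631 genes, log2 CPM correlated with r = 0.987 between the INK128 libraries and 0.882 between the Control libraries, a description across genes of 1 pair each. Both Control libraries stood apart from the other samples. Control replicate 1 held 1021 counts of 4 Y-linked genes, against 2, 0 and 0 counts in the other libraries, although donor gonads and recipients were female, and 12 of 13 Sertoli cell markers were highest in it, with a summed level of 1528 CPM against 102 to 181 CPM. Control replicate 3 was lowest for 12 of 12 oocyte markers, with a summed level of 29.9 CPM against 904 to 1295 CPM, and highest for 5 of 6 luteal markers, with 4311 CPM against 326 to 1209 CPM. Kidney markers summed to 568 and 1332 CPM in the Control libraries and to 64.9 and 164 CPM in the INK128 libraries. Immune markers summed to 755 and 1140 CPM against 378 and 353 CPM. In bulk tissue, fewer cells of a type and less RNA per cell cannot be told apart. The results for the 32 genes are therefore also given against each Control library alone.

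**Figure D1:**
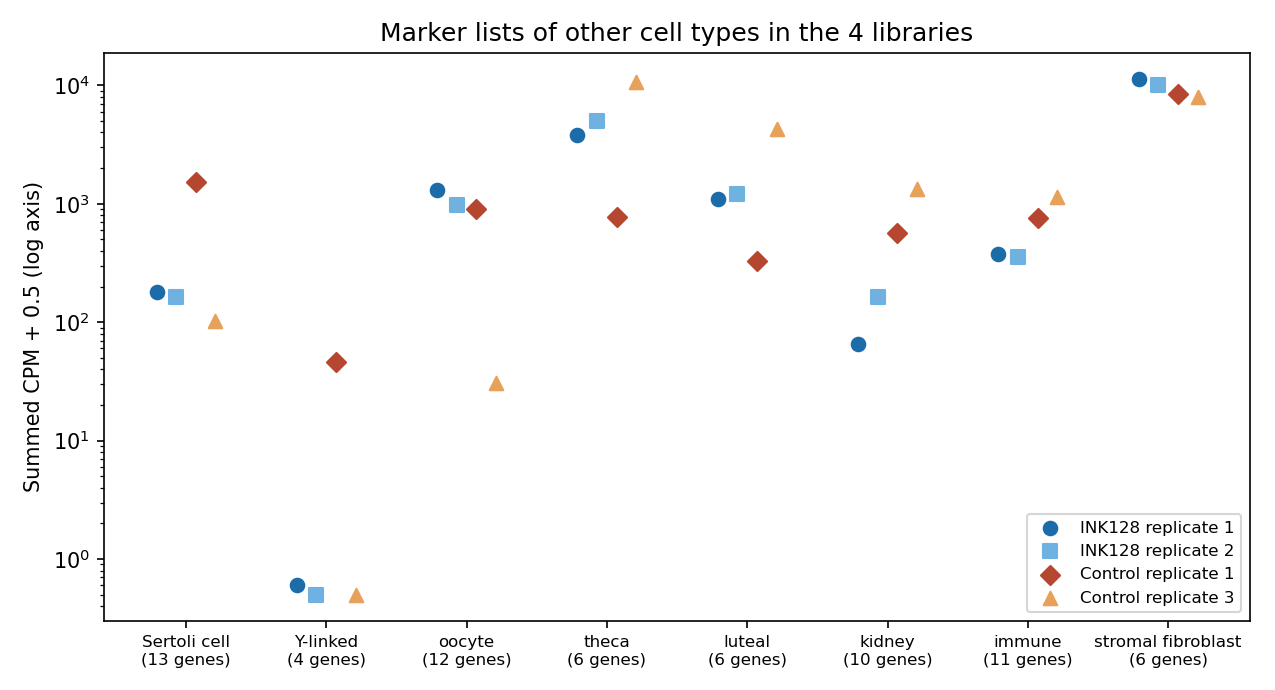
Summed level of markers of other cell types in each library, in CPM + 0.5 on a log axis, with 1 point per library and no error bar because each point is 1 sample. Control replicate 1 is highest for Sertoli cell and Y-linked genes, Control replicate 3 is lowest for oocyte genes and highest for the theca and luteal sums (4 of 6 theca and 5 of 6 luteal genes), and both Control libraries are above both INK128 libraries for kidney and immune genes.

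Few of the 32 genes differed between INK128-treated and Control rOvaries beyond the spread of the replicates. Of the 24 genes with a mean CPM above 10, 1 (Runx1) was lower with INK128 and 0 were higher in edgeR's quasi-likelihood test (threshold: 1.5-fold, with an adjusted p below 0.05). The shares over all 11758 genes tested were 3.19% lower and 3.18% higher, so that 1 lower gene of 24 (4.17%) was close to the background. At an unadjusted p below 0.05, 7 of the 30 genes with a mean CPM above 1 (23.3%) passed in edgeR, against 32.8% of all genes. DESeq2 called 1 gene higher (Inha) and 3 lower (Wt1, Nr0b1 and Runx1), or 4.17% and 12.5% of 24, beside 13.6% and 15.1% of all genes. The median log2 fold change of the 30 genes was -0.13, and that of all 17631 genes was -0.04. The remaining 2 genes, Ptgs2 and Has2, were not above a mean CPM of 1.

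Within the groups, the 2 INK128 libraries were closer to each other at the median than the 2 Control libraries, for these genes and for all genes. The Control libraries were more than 2-fold apart for 13 of the 30 genes (43.3%), against 20.9% of all genes. Of these, 8 were higher in Control replicate 3 and 5 in Control replicate 1. Of all 17631 genes, 1746 were more than 2-fold higher in Control replicate 3 and 1936 in Control replicate 1. The INK128 libraries were more than 2-fold apart for 1 gene, Ptx3, or 3.33%, against 2.23% of all genes. The median absolute log2 gap was 0.86 between the Control libraries and 0.26 between the INK128 libraries for these genes, and 0.44 and 0.20 for all genes. Both INK128 libraries lay above both Control libraries for 7 of the 30 genes (23.3%) and below for 6 (20%), compared with 30.9% and 35.3% of all genes.

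**Figure D2:**
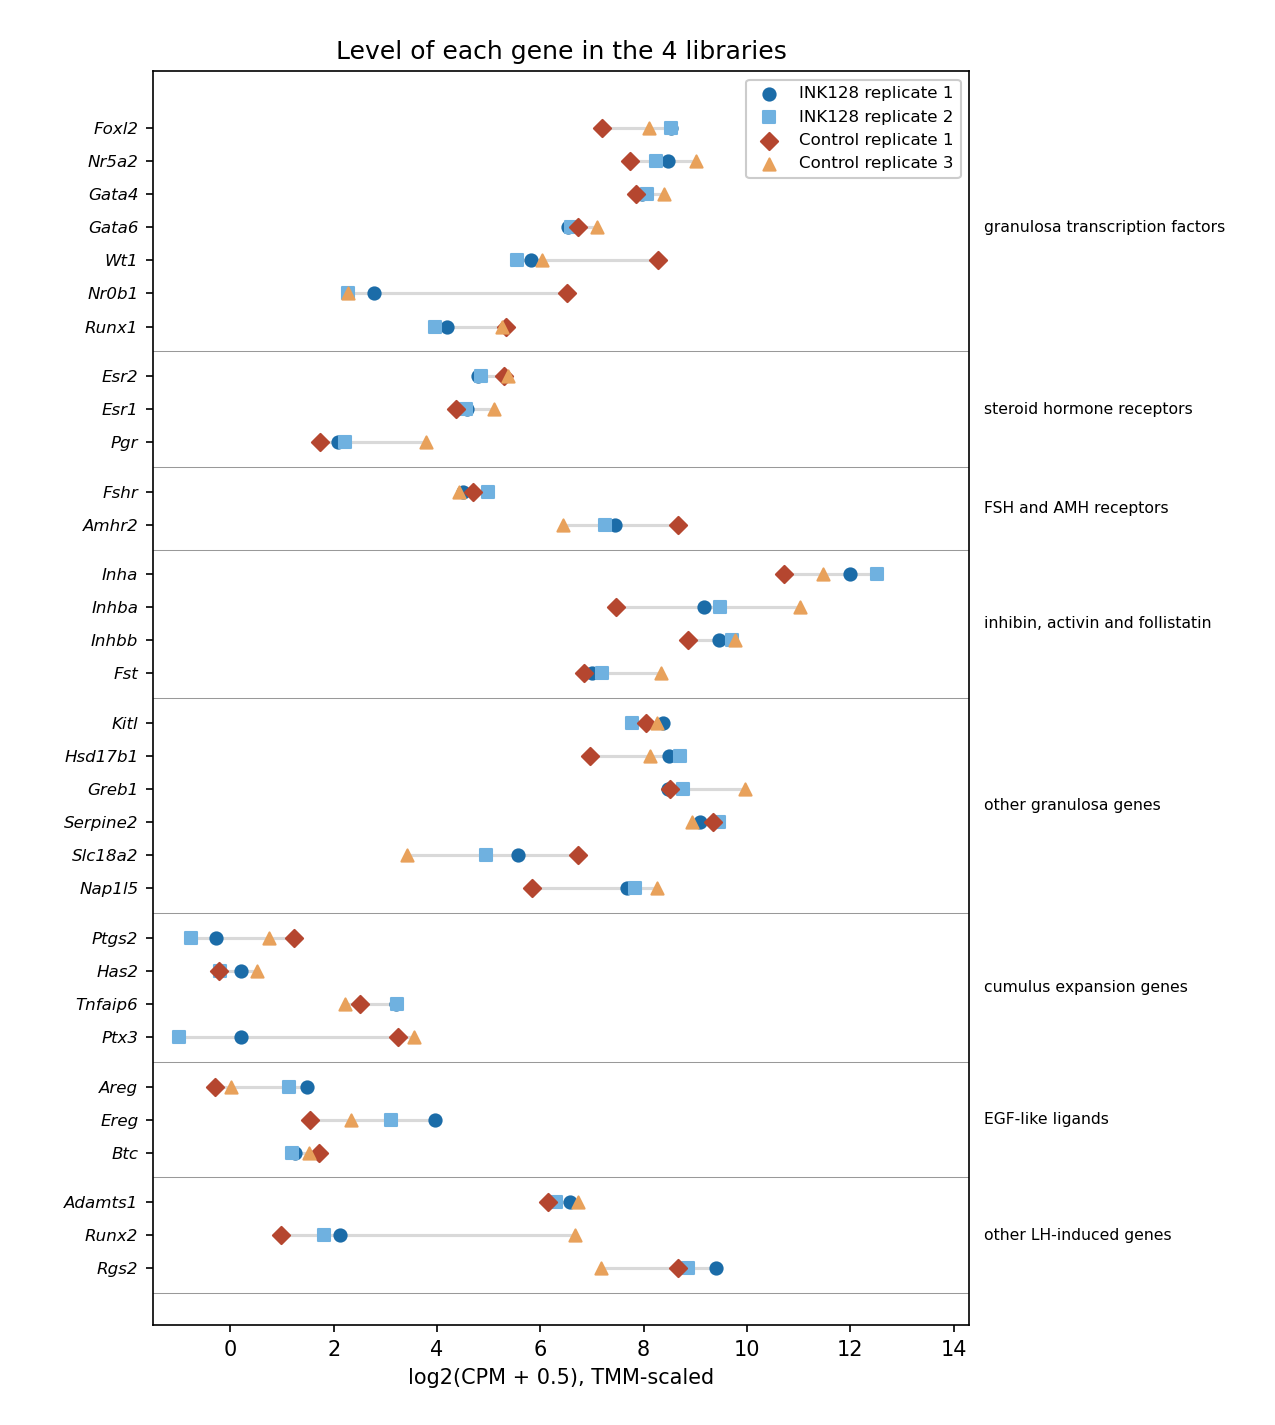
Level of each of the 32 genes in the 4 libraries, as log2(CPM + 0.5), grouped by role; each point is 1 library and the grey line joins the lowest and the highest. The INK128 points lie close together, whereas the Control points are far apart for Wt1, Nr0b1, Amhr2 and Slc18a2 (replicate 1 high) and for Inhba, Nap1l5, Pgr and Runx2 (replicate 3 high).

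Against each Control library alone, many more of the 24 genes passed the same edgeR test, since a lone control brings no spread of its own. These are comparisons with 1 library, share the INK128 libraries, and take the lone control to vary as the INK128 pair does. Against Control replicate 3 alone, 4 genes were higher with INK128 (Amhr2, Slc18a2, Rgs2 and Inha) and 6 lower (Fst, Runx1, Nr5a2, Greb1, Runx2 and Inhba), where 22.7% and 23.2% of all genes were higher and lower. Against Control replicate 1 alone, 7 were higher (Hsd17b1, Nr5a2, Inha, Inhbb, Inhba, Foxl2 and Nap1l5) and 5 lower (Wt1, Runx1, Amhr2, Nr0b1 and Slc18a2), where 21.2% and 21.4% of all genes were higher and lower. The log2 fold change of Inha was 0.80 against Control replicate 3 and 1.57 against Control replicate 1, and that of Runx1 was -1.20 and -1.28. For Nr5a2 (-0.66 and 0.62), Amhr2 (0.92 and -1.33), Inhba and Slc18a2, among other members, its sign depended on the control. For Inhba, the activin beta A subunit, the log2 fold change was -1.70 ± 0.22 (SE) against Control replicate 3 and 1.87 ± 0.23 against Control replicate 1. For Slc18a2, a vesicular monoamine transporter, it was 1.91 ± 0.30 and -1.46 ± 0.23.

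**Figure D3:**
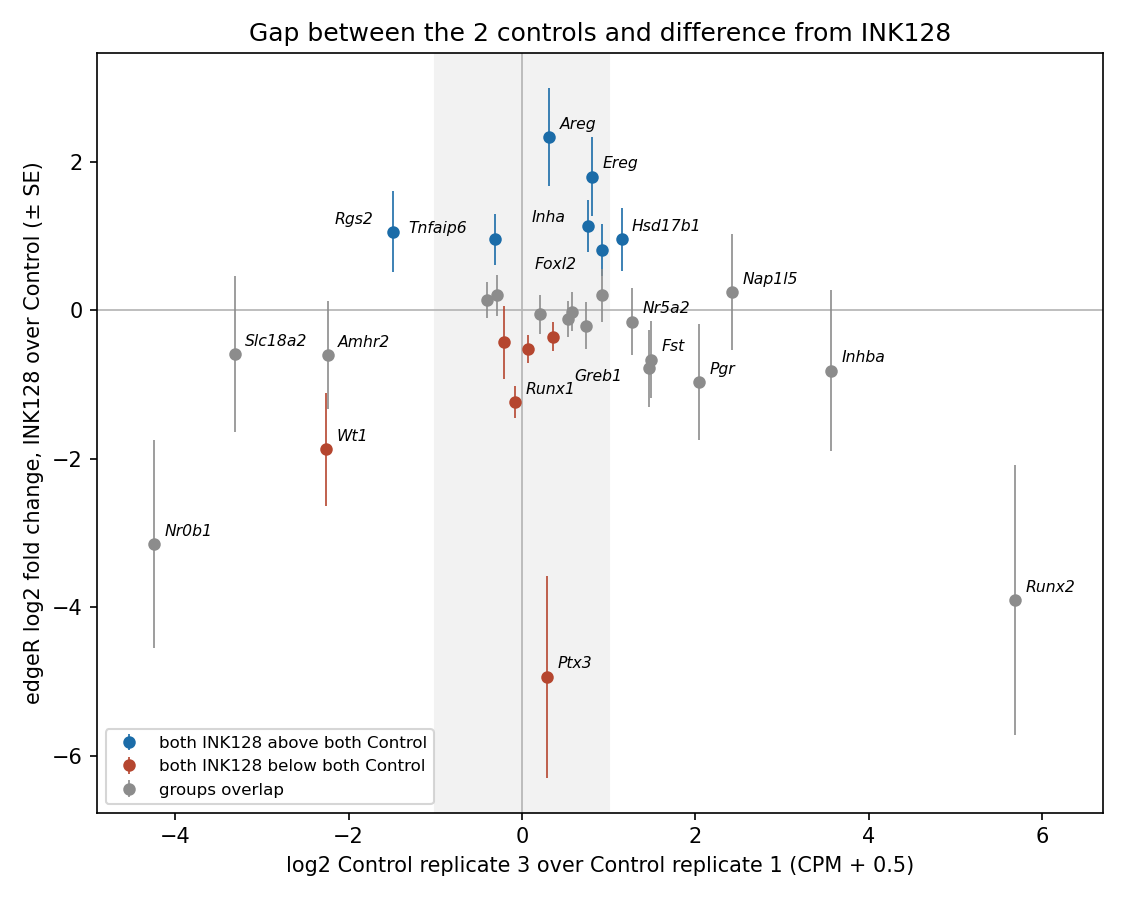
Difference between INK128 and Control (edgeR log2 fold change ± SE, vertical axis) against the gap between the Control libraries (log2 replicate 3 over replicate 1, horizontal axis) for the 30 genes with a mean CPM above 1; the grey band marks gaps up to 2-fold. Genes inside the band include Areg, Ereg, Inha, Tnfaip6, Runx1 and Ptx3, and those farthest outside it, Runx2 and Nr0b1, carry the largest errors.

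Among the transcription factors, Runx1 fell. RUNX1 is a transcription factor of blood cell formation that also marks the supporting cells of the fetal ovary. Its levels were 17.8 and 15.1 CPM in the INK128 libraries and 40.0 and 37.7 CPM in the Control libraries, or 16.5 ± 1.90 and 38.9 ± 1.58 CPM (SD, n = 2 each). The groups did not overlap, and the 2 Control libraries were within 1.06-fold of each other. The log2 fold change was -1.24 ± 0.21 (SE), with an adjusted p of 0.0486 in edgeR and 0.00016 in DESeq2. Adjusted p was 0.0599 in limma voom and 0.0588 in edgeR when all genes averaging more than 1 CPM were tested. With per-library offsets for exon length, it was 0.139 in edgeR, and the log2 fold change was -0.70. No gene passed in these settings, where the lowest adjusted p of any gene was 0.0599, 0.0555 and 0.0726, respectively. Of the 11 immune markers, all of which were listed, 8 were lower in both INK128 libraries, where 35.3% of all genes were. Of the 6 with a mean CPM above 10, edgeR called 1 lower (Cd74, the invariant chain of MHC class II) and DESeq2 5, beside 3.19% and 15.1% of all genes. Ptprc, the pan-leukocyte antigen CD45, was at 7.84, 6.90, 9.43 and 46.8 CPM in INK128 replicates 1 and 2 and Control replicates 1 and 3. The part of blood cells in the Runx1 result was not tested. Runx1 lies on the minus strand at chr16:92601466-92826149 (mm10), and RefSeq gives it a distal and a proximal start. Because Runx1 was the gene called, the bases before both starts are shown 5′ to 3′ on the strand of the gene (RefSeq, GRCm38.p6). The distal window spans chr16:92826150-92826324 and was cut by the 75 bases that GENCODE places in an exon of Runx1, and the proximal window spans chr16:92697330-92697579. Neither holds the cAMP response element TGACGTCA or its core TGACG, the NR5A site CAAGGTCA or the C/EBP site TTGCGCAA on either strand, so all bases are in lower case.
Runx1 distal: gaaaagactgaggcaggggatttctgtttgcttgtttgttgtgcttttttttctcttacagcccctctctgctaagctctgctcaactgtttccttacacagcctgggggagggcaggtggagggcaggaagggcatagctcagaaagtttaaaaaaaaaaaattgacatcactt
Runx1 proximal: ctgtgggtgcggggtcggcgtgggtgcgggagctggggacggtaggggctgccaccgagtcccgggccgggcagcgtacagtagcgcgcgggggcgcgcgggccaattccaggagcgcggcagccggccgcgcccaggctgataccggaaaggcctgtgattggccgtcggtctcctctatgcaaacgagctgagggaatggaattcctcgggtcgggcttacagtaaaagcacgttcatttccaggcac

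FOXL2, the factor that maintains granulosa identity, was represented by 371 and 368 CPM of Foxl2 in the INK128 libraries and 146 and 276 CPM in the Control libraries. Both INK128 libraries were higher, but the log2 fold change of 0.81 ± 0.35 (SE) did not pass (edgeR adjusted p = 0.168). In TPM (levels per exon length), the groups overlapped, with 230, 226, 121 and 233 TPM. Per count of Sox9, the testicular counterpart, Foxl2 had 81.8, 59.1, 0.986 and 62.1 counts in INK128 replicates 1 and 2 and Control replicates 1 and 3. The ratio thus set Control replicate 1 apart, not the groups (exact two-sided permutation p = 0.667, the smallest possible with 2 against 2 being 0.333). Sox9 itself was at 4.51, 6.21, 148 and 4.43 CPM.

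Wt1 and Nr0b1, which are active in supporting cells of both ovary and testis, were high in Control replicate 1. Wt1 was at 56.3 and 46.3 CPM with INK128 and at 311 and 64.6 CPM in the Control libraries, with a log2 fold change of -1.87 ± 0.76 (SE, edgeR adjusted p = 0.153, DESeq2 0.0256). Nr0b1, which encodes the nuclear receptor DAX1, was at 6.39 and 4.37 CPM with INK128 and at 91.2 and 4.34 CPM in the Control libraries, with -3.15 ± 1.40 (edgeR adjusted p = 0.179, DESeq2 0.021). For Nr0b1 the groups overlapped, and for Wt1 the level of Control replicate 3 was only slightly above those of the INK128 libraries. Without Control replicate 1, the log2 fold change was -0.33 for Wt1 and 0.30 for Nr0b1. The Sertoli cell markers that were highest in the same library included Dmrt1, a keeper of testicular identity, with 1, 3, 688 and 0 counts. Their part in these differences was not tested.

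The other transcription factors gave smaller differences. Nr5a2 (LRH-1), which granulosa cells need for ovulation, was at 354 and 300 CPM with INK128 and at 213 and 515 CPM in the Control libraries, so that the INK128 values lay between the controls. Gata4 was at 252 and 267 CPM against 231 and 334 CPM. Gata6, which acts with Gata4 in follicle growth, was at 91.8 and 96.7 CPM against 106 and 136 CPM, lower in both INK128 libraries at a log2 fold change of -0.36 ± 0.20 (SE, edgeR adjusted p = 0.245).

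Of the steroid hormone receptors, Esr2, the main estrogen receptor of granulosa cells, was at 27.1 and 28.4 CPM with INK128 and at 38.8 and 40.8 CPM in the Control libraries. The groups did not overlap, at a log2 fold change of -0.52 ± 0.19 (SE), but the test over all genes was not passed (edgeR adjusted p = 0.124). Esr1, which is stronger in theca and stroma, was at 23.3 and 23.1 CPM against 20.01 and 33.7 CPM. The ratio of Esr2 to Esr1 counts was 1.16, 1.23, 1.94 and 1.21, so Control replicate 1 was again the library set apart (difference in log2 ratio -0.36, exact two-sided permutation p = 0.667). Pgr, the progesterone receptor that LH induces before follicle rupture, was low, at 3.76 and 4.14 CPM against 2.83 and 13.2 CPM. Its level in Control replicate 3 was 3.20 times the highest of the other libraries.

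Fshr, the FSH receptor of granulosa cells, was among the steadiest of the genes, at 22.1 and 31.1 CPM with INK128 and at 25.6 and 20.9 CPM in the Control libraries (log2 fold change 0.20 ± 0.27, SE, edgeR adjusted p = 0.623). Amhr2, the receptor for AMH, was at 173 and 152 CPM against 408 and 86.1 CPM. The ligand gene Amh, made by granulosa cells of small growing follicles and by Sertoli cells, was at 131 and 80.1 CPM against 435 and 5.10 CPM. Both genes thus placed the INK128 libraries between the 2 controls.

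Inha encodes the alpha subunit, which is shared by inhibins A and B, the hormones that lower pituitary FSH. It had the highest TPM of the 32 genes in all 4 libraries, with 5553 and 7975 TPM with INK128 and 3082 and 5325 TPM in the Control libraries. In CPM, the levels were 4067 and 5893 against 1680 and 2858. Both INK128 libraries were higher on both scales, although the lower INK128 value and the higher Control value were close in TPM. The log2 fold change was 1.13 ± 0.35 (SE), with an adjusted p of 0.0993 in edgeR and 0.0129 in DESeq2, and 0.44 with exon length offsets (edgeR adjusted p = 0.481). Sertoli cells also make Inha, and their part in its level was not tested.

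The beta subunits, which pair with alpha to form inhibin and with each other to form activin, varied mainly between the controls. Inhba (beta A), a gene of large follicles, was at 577 and 711 CPM with INK128 and at 176 and 2088 CPM in the Control libraries, 11.9-fold apart. Inhbb (beta B), a gene of smaller follicles, was at 701 and 834 CPM against 461 and 875 CPM. Per length, Inhba had 0.548 and 0.568 times the TPM of Inhbb with INK128, 0.254 times in Control replicate 1 and 1.59 times in Control replicate 3. The beta B transcript was therefore the more abundant in 3 libraries and the beta A transcript in the fourth. The difference between groups in the log2 count ratio was -0.19 (exact two-sided permutation p = 1, with 0.333 the smallest possible), -1.51 without Control replicate 1 and 1.13 without Control replicate 3. Fst, encoding the activin-binding protein follistatin, was at 128.235 and 146 CPM against 114 and 322 CPM, again highest in Control replicate 3. Of the 6 luteal markers, 5 were highest in the same library. Among these 5, Ptgfr, the prostaglandin F receptor, was at 3.17, 3.82, 3.10 and 238 CPM. Whether luteal cells carried these differences was not tested.

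**Figure D4:**
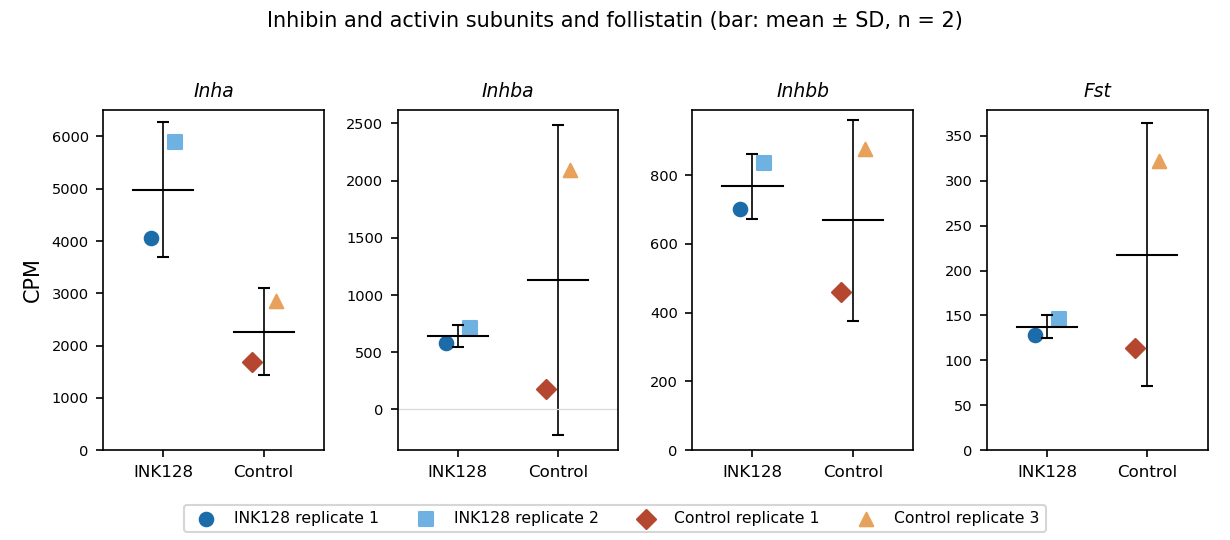
CPM of Inha, Inhba, Inhbb and Fst in the 4 libraries; points are libraries, the horizontal bar is the group mean and the whiskers are 1 SD (n = 2 each). Both INK128 libraries are above both Control libraries for Inha, while for Inhba the Control libraries lie at 176 and 2088 CPM on either side of the INK128 pair.

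Among the other granulosa genes, Hsd17b1, whose enzyme turns estrone into estradiol, was at 358 and 418 CPM with INK128 and at 124 and 277 CPM in the Control libraries. It was higher in both INK128 libraries in CPM (log2 fold change 0.95 ± 0.42, SE, edgeR adjusted p = 0.177), while in TPM the groups overlapped, with 539, 624, 252 and 569, and with exon length offsets the log2 fold change was 0.23 (edgeR adjusted p = 0.767). Cyp19a1, the aromatase of the same pathway, was at 223, 177, 35.7 and 163 CPM. Kitl, the granulosa ligand of the oocyte's KIT receptor, was at 332 and 219 CPM against 266 and 308 CPM, and Serpine2, a protease inhibitor, was at 546 and 699 CPM against 646 and 489 CPM. For both, the INK128 and Control values were interleaved.

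Greb1, an estrogen-induced gene, was at 357 and 436 CPM with INK128 and at 362 and 1003 CPM in the Control libraries. Nap1l5, an imprinted gene of the nucleosome assembly family, was at 205 and 226 CPM against 56.8 and 308 CPM. Slc18a2 showed the opposite order of the controls, at 46.8 and 30.3 CPM with INK128 and at 106 and 10.2 CPM without. None of the 3 passed the test (edgeR adjusted p = 0.321, 0.837 and 0.699).

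The EGF-like ligands were low in CPM, and 2 of the 3 were higher in both INK128 libraries, as were 30.9% of all genes. In the edgeR test over genes averaging more than 1 CPM, none of the 3 passed, and neither did any other gene. With a filter of at least 1 count, Ereg passed (edgeR adjusted p = 0.0464). Areg (amphiregulin) had 43 and 37 counts with INK128 and 7 and 12 counts in the Control libraries, or 2.31 and 1.70 against 0.310 and 0.506 CPM. The groups did not overlap, with a 4.91-fold difference of the means and a log2 fold change of 2.33 ± 0.66 (SE, edgeR adjusted p = 0.094, DESeq2 0.0844). Ereg (epiregulin), at 15.1 and 8.14 CPM against 2.39 and 4.55 CPM, differed by 3.35-fold, with a log2 fold change of 1.80 ± 0.53 (edgeR adjusted p = 0.101, DESeq2 0.0245). Btc (betacellulin) was at 1.88 and 1.79 CPM against 2.79 and 2.36 CPM, lower in both INK128 libraries at -0.43 ± 0.49 (edgeR adjusted p = 0.561). Areg and Ereg are neighbours on chromosome 5, at chr5:91139599-91148432 and chr5:91074622-91093646 (mm10, plus strand), and Btc lies at chr5:91357261-91402994 on the minus strand.

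The cumulus genes did not share a direction. Tnfaip6, whose product cross-links hyaluronan, was at 8.70 and 8.79 CPM with INK128 and at 5.22 and 4.13 CPM in the Control libraries, higher in both at a log2 fold change of 0.95 ± 0.34 (SE, edgeR adjusted p = 0.139). Ptx3, which anchors that matrix and is also made by inflamed stroma and myeloid cells, had 12 and 0 counts with INK128 and 204 and 265 counts in the Control libraries. That is 0.644 and 0 CPM against 9.03 and 11.2 CPM, the largest absolute fold change of the 30 genes (log2 -4.94 ± 1.36, edgeR adjusted p = 0.0888, DESeq2 0.000588). The size rests on the 12 counts of INK128 replicate 1, since the other INK128 library had 0. Without INK128 replicate 2 the log2 fold change was -3.92. Ptgs2 (COX-2), the enzyme of prostaglandin synthesis, had 6 and 2 counts against 42 and 28 counts, and 1 of its INK128 libraries was thus under the floor of 3 counts. Has2, the hyaluronan synthase, had 12 and 8 counts against 8 and 22 counts. In an edgeR fit over all genes with at least 1 count, adjusted p was 0.0916 for Ptgs2 and 0.878 for Has2, and Ptx3 and Ereg passed at 0.00878 and 0.0464. None of the EGF-like ligands or cumulus genes had a mean CPM above 10, so none entered the edgeR test over such genes. Among all 17631 genes averaging more than 1 CPM, the lowest edgeR adjusted p was 0.0555, so no gene passed there. Has2 was below 1 CPM in every library. The summed immune markers, given above, were also lower in both INK128 libraries, and their part in the Ptx3 and Ptgs2 levels was not tested.

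**Figure D5:**
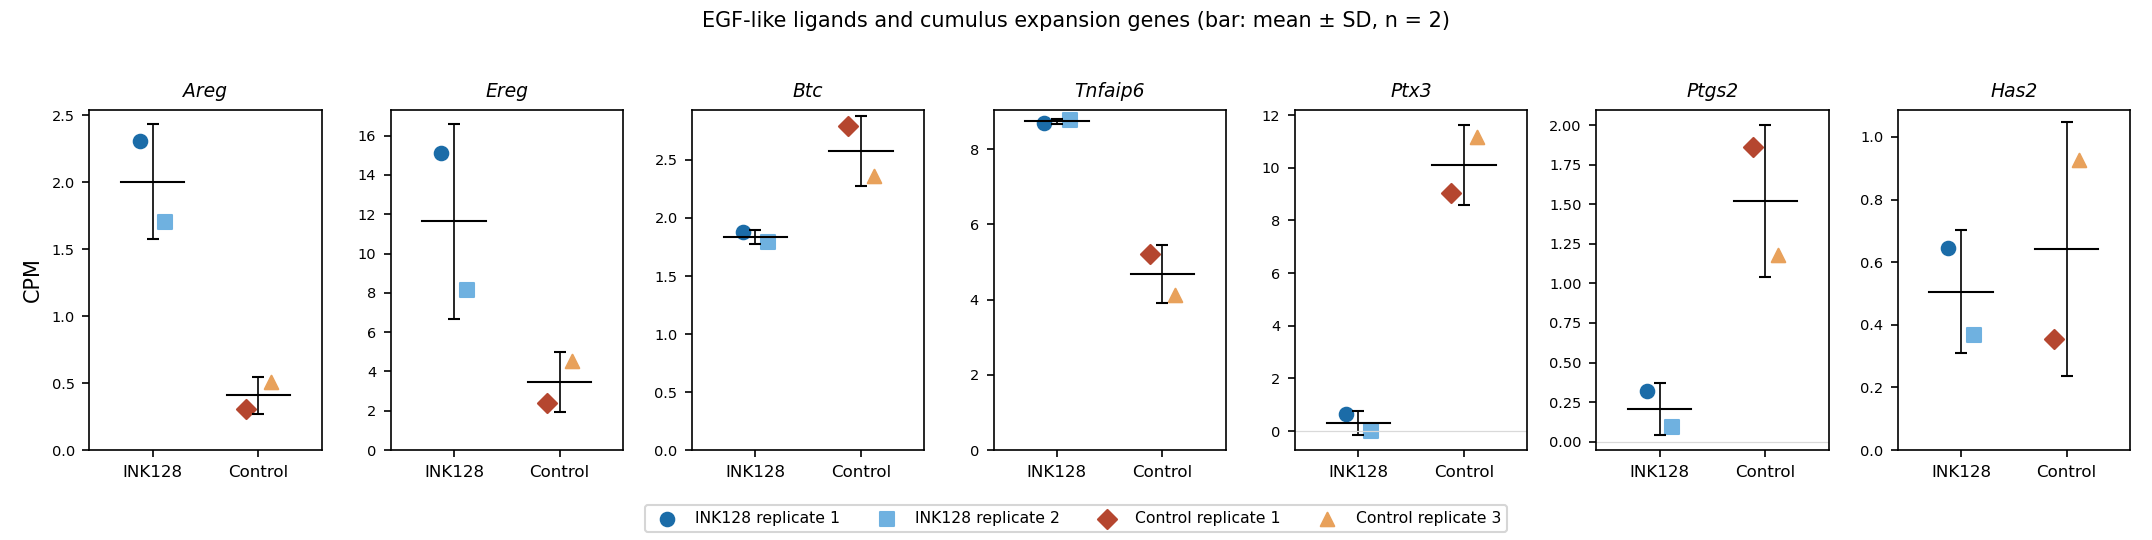
CPM of the EGF-like ligands Areg, Ereg and Btc and of the cumulus genes Tnfaip6, Ptx3, Ptgs2 and Has2; points are libraries, the horizontal bar is the group mean and the whiskers are 1 SD (n = 2 each). INK128 is higher in both libraries for Areg, Ereg and Tnfaip6 and lower in both for Btc, Ptx3 and Ptgs2, and the groups overlap for Has2.

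LH acts on these genes through cAMP, which reaches promoters by CREB at the element TGACGTCA and by C/EBP-beta at sites such as TTGCGCAA. Of the 32 genes, 25 had a promoter in the RefSeq table (29 promoters). In the 250 bases before the start, TGACGTCA was found on either strand in 1 of the 29 promoters (Areg) and in 1.55% of 32851 promoters of all genes. TTGCGCAA was found in 1 (Ptgs2) and in 0.164% of all promoters, and CAAGGTCA in 1 (Amhr2) and in 1.33%. The core TGACG was found in 5 of the 29 promoters (Adamts1, Areg, Btc, Esr2 and Rgs2) and in 17.8% of all promoters. In Areg it also occurs within the full element. These are matches of letters, with no measurement of binding. The windows of Areg and Ptgs2, chosen after their values were seen because the INK128 levels lay above both controls for Areg and below both for Ptgs2, are shown 5′ to 3′ on the plus strand (RefSeq, GRCm38.p6), with motif matches in capitals. In Areg (chr5:91139349-91139598), the capitals are a TGACG core read on the other strand, 115 to 111 bases before the start, and the full element 61 to 54 bases before it. In Ptgs2 (chr1:150099781-150100030), they are the C/EBP site 69 to 62 bases before the start, and 183 of the 250 bases lie in exons of the antisense gene Ptgs2os.
Areg: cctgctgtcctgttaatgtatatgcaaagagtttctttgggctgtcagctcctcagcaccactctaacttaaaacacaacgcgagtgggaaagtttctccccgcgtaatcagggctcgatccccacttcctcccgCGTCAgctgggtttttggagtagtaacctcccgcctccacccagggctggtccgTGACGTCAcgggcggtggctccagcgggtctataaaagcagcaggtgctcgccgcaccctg
Ptgs2: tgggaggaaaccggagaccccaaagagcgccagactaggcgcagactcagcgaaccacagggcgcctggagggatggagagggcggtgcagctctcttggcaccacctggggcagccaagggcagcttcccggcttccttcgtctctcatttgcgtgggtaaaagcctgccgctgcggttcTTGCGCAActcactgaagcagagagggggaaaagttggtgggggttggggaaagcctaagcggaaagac

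The other LH-induced genes gave 3 patterns. Adamts1, a protease that cuts versican in the cumulus matrix, was at 95.2 and 78.0 CPM with INK128 and at 70.4 and 105 CPM in the Control libraries, with no difference of the means (log2 fold change -0.02 ± 0.26, SE). Rgs2, a regulator of G protein signaling, was at 672 and 462 CPM against 403 and 143 CPM, higher in both INK128 libraries (1.05 ± 0.54, edgeR adjusted p = 0.229). Its log2 fold change was 1.98 without Control replicate 1 and 0.49 without Control replicate 3. Runx2, which is induced in luteinizing granulosa cells, was at 3.86 and 2.99 CPM against 1.46 and 101 CPM. Its 69.2-fold gap between the controls was the widest of the 32 genes, and the log2 fold change of -3.90 ± 1.82 (edgeR adjusted p = 0.194) rested on Control replicate 3, without which it was 1.22.

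Genes of the pathways around these members showed few calls in edgeR and more in DESeq2. Of the FSH receptor signaling list, 21 of 22 genes had a mean CPM above 10. In edgeR, 1 of them fell and 0 rose, where 3.19% and 3.18% of all genes did, and in DESeq2, 6 fell and 0 rose, where 15.1% and 13.6% of all genes did. The median log2 fold change was -0.43. The gene called by edgeR was Adcy9, an adenylyl cyclase, at 2.68 and 2.94 CPM with INK128 and at 21.1 and 59.8 CPM in the Control libraries (log2 fold change -3.84 ± 0.60, SE, edgeR adjusted p = 0.0464). Its adjusted p was 0.0558 among all genes averaging more than 1 CPM and 0.0837 with exon length offsets. No gene passed in either setting, where the lowest edgeR adjusted p of any gene was 0.0555 and 0.0726. Sgk1, a kinase induced by FSH and by other hormones, and Irs2, an insulin receptor adaptor, had log2 fold changes of -2.23 ± 0.71 and -1.56 ± 0.43 and passed in DESeq2 (adjusted p = 0.00402 and 0.0105) but not in edgeR (adjusted p = 0.102 and 0.0805). Lhcgr, the LH receptor, was at 369 and 485 CPM against 34.04 and 1380 CPM.

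In the ovulation signaling list, 21 of 26 genes had a mean CPM above 10. Of these, 2 fell in edgeR, namely Erbb3, a co-receptor for EGF-family ligands, at 1.02 and 0.736 CPM against 32.4 and 10.7 CPM, and Dusp1, a phosphatase that inactivates MAP kinases, at 19.8 and 20.9 CPM against 65.7 and 84.0 CPM (edgeR adjusted p = 0.0464 for both). Among all genes averaging more than 1 CPM, adjusted p was 0.0555 for both, and with exon length offsets it was 0.0837 for Erbb3 and 0.0726 for Dusp1. No gene passed in either setting, where the lowest edgeR adjusted p of any gene was 0.0555 and 0.0726. In the edgeR test over genes with a mean CPM above 10, none of the 21 rose, and 3.19% of all genes fell. In DESeq2, 1 rose and 2 fell, where 13.6% and 15.1% of all genes did. An unadjusted p below 0.05 in edgeR was reached by 5 of the 24 genes with a mean CPM above 1, compared with 32.8% of all genes. Sult1e1, an estrogen sulfotransferase with under 1 CPM in 3 libraries, had a log2 fold change of -3.52 ± 1.35 (SE, edgeR adjusted p = 0.152), and Prkg2, a cGMP-dependent kinase, one of -2.55 ± 0.87 (edgeR adjusted p = 0.126). Ptger2, the PGE2 receptor of cumulus cells, was at 26.9 and 19.8 CPM against 4.96 and 7.38 CPM, and passed in DESeq2 and not in edgeR (adjusted p = 0.0507). Egfr, the receptor for Areg and Ereg, was at 70.7 and 69.1 CPM against 54.1 and 62.3 CPM.

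The shares called over all genes were 3.18% higher and 3.19% lower in edgeR, and 13.6% and 15.1% in DESeq2, and the median log2 fold change of all genes was -0.04. Of 9 tested genes among the activin receptors and SMADs, 0 passed in edgeR or DESeq2, 4 of the 11 listed had an unadjusted p below 0.05, compared with 32.8% of all genes, and the median log2 fold change was -0.52. The largest log2 fold changes were those of Fstl3, an activin-binding protein (-2.39 ± 1.21, SE), of the type II receptor gene Acvr2b (-1.51 ± 0.53) and of the type I receptor gene Acvr1c (-1.14 ± 0.74). For Fstl3 the groups overlapped, at 7.73 and 13.9 CPM with INK128 and 106 and 7.93 CPM in the Control libraries, and it was high only in Control replicate 1. Of 5 tested pre-granulosa and Wnt genes, 0 passed in edgeR and 1 in DESeq2 (Rspo1, lower), and the median of the 7 was -0.89. Lgr5, a Wnt amplifier that marks the fetal ovary surface and early granulosa precursors, was at 0.537 and 0.644 CPM against 5.003 and 9.61 CPM. Over the genes above 1 CPM, its log2 fold change was -3.56. Adjusted p was 0.0558 in edgeR, where no gene passed with that filter, and 4.15e-05 in DESeq2. Rspo1, its ligand, was at 5.85 and 6.49 CPM against 32.5 and 11.8 CPM, and Axin2, a Wnt target, had -0.94 ± 0.38. Of the 8 granulosa hormone and junction genes, 0 passed in edgeR and 1 in DESeq2 (Cdh2, N-cadherin, lower), with a median of 0.02 and log2 fold changes of -1.78 ± 0.39 for Cdh2, -1.06 ± 1.70 for Amh and 1.01 ± 0.72 for Cyp19a1. The kidney expresses several genes of these lists, and the kidney markers were higher in both Control libraries; their part was not tested.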

How the data were processed

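PolyA RNA of 4 rOvaries was sequenced after library preparation with a NEBNext Ultra kit. According to the methods and the submitters' processing notes, the authors used Trimmomatic for trimming, Hisat2 for alignment to mm10 and featureCounts for counting; tool versions and strand setting were not given in the sources used here. The deposited values are raw counts by gene symbol, unnormalized and unpooled. Columns were matched to libraries by name, and groups came from the labels.

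CPM with TMM factors and the quasi-likelihood F-test were computed with edgeR 4.0.16 in R 4.3.3 over 11758 genes with a mean CPM above 10, without covariates and with Benjamini-Hochberg adjustment. For genes with a lower mean, the test covered all 17631 genes averaging more than 1 CPM. SEs came from the fold change and its F statistic. Log2 CPM used a pseudocount of 0.5. DESeq2 1.42.0, limma voom 3.58.1, other scalings and filters, per-library exon length offsets and leaving out each library were alternatives. TPM used GENCODE M21 exon lengths (53447 of 54021 symbols matched), and 9 of the 32 genes share 0.369% to 7.68% of exon bases with an antisense gene, whose reads cannot be told apart. A floor of 3 counts and all tests cover counting error and the spread of 2 libraries per group only. The tests were tried on simulated data with planted changes. Both groups had the same spread there, so the wider gap between the Control libraries was not covered.

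All 32 members were named. Of each pathway or marker list, up to 3 genes with the largest absolute log2 fold change were eligible, with Sox9 and Amh always named. Other genes (Lhcgr, Egfr, Ptger2, Dusp1, Cd74 and Ptprc) were chosen after their values were seen. The members, lists and motifs were chosen with earlier results of these data known.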

Additional observations from a re-analysis of the deposited data

How the results depend on the processing

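The number of calls depended on the tool and filter, and the members' call was 1 gene near the threshold. No paired analysis was possible because the groups share fewer than 2 replicate numbers. DESeq2 called 1 member higher and 3 lower, and 1595 and 1772 genes. Limma voom, the mean CPM filter at 1 and the exon length offsets called 0 members lower and 0 genes in either direction, with 3979, 5797 and 3117 genes at an unadjusted p below 0.05 (4276 in the edgeR test reported). Requiring more than 10 CPM in at least 2 libraries gave 728 genes higher and 834 lower of 11881 tested. A filter of at least 1 count tested 31483 genes and all 32 members. It gave 1152 genes higher and 1953 lower, with 2 members higher and 5 lower. An adjusted p below 0.1 gave 1540 and 1591 genes and 1 member higher. Against 374 genes higher and 375 lower with TMM, library totals gave 290 and 580 and upper quartile scaling 567 and 396. The median log2 fold change of all genes tested was -0.03 with TMM and -0.15 with library totals, where no member turned its sign. RLE size factors and no limit on the fold change left Runx1 the only member called.

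Leaving out 1 library at a time gave 0 to 7 members higher and 0 to 6 lower, 0 to 2664 genes higher and 0 to 2723 lower, and a members' median log2 fold change of -0.26 to 0.30. A lone library was assumed to vary like the pair in the other group. Without INK128 replicate 1 or 2, edgeR called 0 genes, with 1525 and 1338 at an unadjusted p below 0.05, and Runx1 had a log2 fold change of -1.37 and -1.13. The difference in the log2 ratio of Inhba to Inhbb ranged from -1.51 to 1.13 and turned positive without Control replicate 3. The sign also turned for 17 members, whose log2 fold changes ranged from -0.66 to 0.62 (Nr5a2), -0.36 to 0.17 (Gata4), -4.09 to 0.30 (Nr0b1), -0.54 to 0.22 (Esr1), -1.69 to 0.53 (Pgr), -0.081 to 0.41 (Fshr), -1.33 to 0.92 (Amhr2), -1.70 to 1.87 (Inhba), -0.19 to 0.74 (Inhbb), -1.23 to 0.27 (Fst), -0.40 to 0.21 (Kitl), -1.34 to 0.13 (Greb1), -0.068 to 0.35 (Serpine2), -1.46 to 1.91 (Slc18a2), -0.51 to 1.93 (Nap1l5), -0.28 to 0.30 (Adamts1) and -4.89 to 1.22 (Runx2). Of those that kept their sign, the range exceeded 1.5 times for Foxl2 (0.42 to 1.34), Gata6 (-0.53 to -0.17), Wt1 (-2.60 to -0.33), Inha (0.80 to 1.57), Hsd17b1 (0.49 to 1.64), Ereg (1.27 to 2.33), Btc (-0.55 to -0.31) and Rgs2 (0.49 to 1.98), and for Ptx3, whose INK128 level was 0 counts without INK128 replicate 1.

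Among the other settings, the sign turned for Inhba (0.082), Slc18a2 (0.20) and Adamts1 (0.0014) in limma voom and for Kitl (0.0041) and Adamts1 (0.043) with upper quartile scaling. Adamts1 turned to 0.034 with the mean CPM filter at 1 and to 0.025 with the filter of at least 1 count. With exon length offsets, Nr5a2 turned to 0.014, Esr1 to 0.40, Fshr to -0.23, Kitl to 0.10, Nap1l5 to -0.37 and Adamts1 to 0.075. Without turning its sign, the log2 fold change moved by over 1.5 times in limma voom for Nr5a2 (-0.023), Nr0b1 (-1.91), Pgr (-0.59), Amhr2 (-0.21), Nap1l5 (0.70) and Runx2 (-1.95), and with exon length offsets for Gata4 (-0.22), Gata6 (-0.13), Runx1 (-0.70), Pgr (-0.60), Amhr2 (-1.08), Inha (0.44), Hsd17b1 (0.23), Greb1 (-0.32), Serpine2 (0.49) and Tnfaip6 (0.55). Under the other scalings and filters, values that moved so were of size 0.24 or less in the test reported. The cause of these changes was not tested.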
